A study of Arabidopsis thaliana with 15 samples.

Results

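Gene-body methylation is DNA methylation in the transcribed part of active genes, where cytosines in the CG context are methylated and those in CHG and CHH (H is A, C or T) are not. The windows described here are the fully methylated end of that pattern in germinating seeds of Arabidopsis thaliana. The nuclear genome was cut into 300-bp windows, and the calls of the 3 libraries of cold-stratified seed (48 h S) were summed in each. A window was kept if it held at least 60 CG, 60 CHG and 100 CHH calls, with a methylation level of 80% or more in CG, below 5% in CHG and below 2% in CHH. This gave 7831 full-CG windows of 397157 in all, which is 1.97%, or 2.13% of the 368319 windows with enough calls. The 48 h S values thus chose the windows, so they are given here as a description and no test compares them with another time. They do enter the spread between libraries that the single-window fits estimate, and the minimum of calls for those fits. The question asked is how well full CG methylation was kept over the 5 time points of germination.

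All 15 libraries were bisulfite sequencing (MethylC-seq) of wild-type Col0 plants, 3 biological replicates per time point, without mutants or added agents. Dry seed (0 h) had been kept for 14 days in the dark, and 48 h S seed had then spent 48 h at 4 °C in the dark on MS medium. The SL samples had the same stratification followed by 6, 24 or 48 h of continuous light at 22 °C (6 h SL, 24 h SL, 48 h SL). The label of the tissue is seed at 0 h, seedling at 48 h SL and germinating seed for the other times, so time and tissue cannot be told apart at the ends of the course. These are bulk samples, in which a changed mix of cells and a changed level within cells cannot be told apart either. The libraries held 97238997 to 428839380 calls, or 2.27 to 10.01 calls per cytosine, lowest in 24 h SL replicate 1 and highest in 48 h S replicate 3. The full-CG windows took 215493 to 992581 CG calls per library, and the 95% Wilson interval of a library's CG level was at most 0.289 percentage points wide, which covers counting error only.

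CG methylation is copied after replication. MET1 methylates the new strand opposite a methylated one, VIM proteins bind the hemimethylated site, and DDM1 remodels nucleosomes to give access. CHG and CHH methylation instead depend on the CMT3 and CMT2 enzymes with histone H3K9 methylation, or on RNA-directed methylation, and they mark transposons. Active removal is the work of the ROS1 and DME family of glycosylases. Germination brings a resting embryo back into cell division, so patterns laid down during seed formation have to pass through new rounds of copying.

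The sequences of some full-CG windows are printed from the plus strand of the RefSeq TAIR10.1 assembly, 5′ to 3′, with every CG dinucleotide in capitals. The first group comes from the 3 genes with the most or next most full-CG windows, and shows how the dinucleotides lie within coding windows. AT1G48090 encodes a lipid-binding family protein, AT1G67120 a midasin-like ATPase, whose yeast counterpart acts in ribosome assembly, and ILA (AT1G64790) is ILITYHIA, a HEAT-repeat protein. The windows are chr1:17734801-17735100 with 10 CG, chr1:25084501-25084800 with 11 CG and chr1:24066001-24066300 with 11 CG.
AT1G48090: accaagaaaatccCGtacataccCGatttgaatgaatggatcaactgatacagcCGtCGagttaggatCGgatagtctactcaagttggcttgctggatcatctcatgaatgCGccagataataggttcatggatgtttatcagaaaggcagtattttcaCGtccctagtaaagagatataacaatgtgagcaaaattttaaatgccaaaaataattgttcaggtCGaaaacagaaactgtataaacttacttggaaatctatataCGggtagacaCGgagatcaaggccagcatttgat
AT1G67120: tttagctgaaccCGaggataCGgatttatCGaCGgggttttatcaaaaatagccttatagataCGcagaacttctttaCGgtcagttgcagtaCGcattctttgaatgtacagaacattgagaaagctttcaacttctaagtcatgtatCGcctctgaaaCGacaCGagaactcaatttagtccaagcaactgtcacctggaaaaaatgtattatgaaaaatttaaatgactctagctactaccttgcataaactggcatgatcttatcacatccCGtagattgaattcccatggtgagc
ILA: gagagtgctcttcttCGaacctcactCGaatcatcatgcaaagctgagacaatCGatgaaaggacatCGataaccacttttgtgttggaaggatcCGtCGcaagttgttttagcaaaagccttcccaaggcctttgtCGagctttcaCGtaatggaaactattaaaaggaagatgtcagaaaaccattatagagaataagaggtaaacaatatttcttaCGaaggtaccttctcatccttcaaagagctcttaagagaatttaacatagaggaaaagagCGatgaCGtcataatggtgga
The next pair holds extremes of change between 0 h and 48 h SL among the full-CG windows tested singly, chosen after their values were seen. They are the window with the smallest p-value, in a coding exon of ATM (chr3:17824801-17825100, 6 CG), and that with the largest gain, in an intron of AT1G50140 (chr1:18577201-18577500, 4 CG).
ATM: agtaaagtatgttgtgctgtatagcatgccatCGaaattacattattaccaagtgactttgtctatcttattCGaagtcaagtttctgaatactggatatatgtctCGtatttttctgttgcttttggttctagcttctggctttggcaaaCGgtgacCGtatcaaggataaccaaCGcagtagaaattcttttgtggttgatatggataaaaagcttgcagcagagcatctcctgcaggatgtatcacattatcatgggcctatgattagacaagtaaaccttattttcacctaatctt
AT1G50140: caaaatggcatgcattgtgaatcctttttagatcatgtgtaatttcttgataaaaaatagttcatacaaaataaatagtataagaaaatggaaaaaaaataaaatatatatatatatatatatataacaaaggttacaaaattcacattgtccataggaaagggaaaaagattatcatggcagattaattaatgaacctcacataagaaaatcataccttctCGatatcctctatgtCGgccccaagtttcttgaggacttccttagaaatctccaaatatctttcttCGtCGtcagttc

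Positions in these windows are counted from 1 at the left end. In the AT1G48090 window 9 of the 10 dinucleotides were methylated in most calls at 0 h, while the one at position 161 was unmethylated in all of 32 calls at 0 h, 64 calls at 48 h S, 17 calls at 24 h SL and 47 calls at 48 h SL, and methylated in 2.38% of 42 calls at 6 h SL. It is followed by T on both strands. The AT1G67120 window also had 1 poorly methylated dinucleotide, at position 276, with 16.7% in dry seed and 27.3% at 48 h SL. In the ILA window positions 96 and 148 stood below the rest at 48 h S, with 59.6% and 74.2%. Position 96 was not low at every time, with 92% of 25 calls at 0 h and 88.2% of 17 calls at 24 h SL. At 6 h SL and 48 h SL it was at 73.3% and 66.7%. A full-CG window was therefore not always a window in which every dinucleotide was full.

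Full CG methylation was kept to within about 1 point in 86 through germination. The 3 libraries of dry seed were at 86.9%, 86.7% and 86.8%. After 6 h of light they were at 87.2%, 86.9% and 86.9%, after 24 h at 86.4%, 85.6% and 85.8%, and after 48 h at 86.4%, 85.6% and 85.4%. At 48 h S, whose values chose the windows, it was 87.2%, 87.4% and 87.3%. The 24 h SL and 48 h SL libraries lay below all 0 h libraries, while those of 6 h SL overlapped them. The means were 86.8% ± 0.112, 87.3% ± 0.0771, 87.0% ± 0.134, 85.9% ± 0.410 and 85.8% ± 0.558 (SD, n = 3) in the order of time. The difference between 6 h SL and 0 h was 0.195 points (exact 2-sided permutation p = 0.2, adjusted over the 3 comparisons p = 0.2). For 24 h SL it was −0.863 (exact p = 0.1, adjusted p = 0.15) and for 48 h SL −1.002 (exact p = 0.1, adjusted p = 0.15). With 3 libraries against 3 this test cannot go below 0.1, so no pairwise difference passed 0.05. Over the 4 time points that did not choose the windows the level differed (permutation F test with 100000 resamples, p = 0.0133). The difference at 48 h SL was −1.15% of the level at 0 h. Without 48 h SL replicate 1 the difference from 0 h was −1.32 points, and the ranges left by each omission are in the closing section.

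**Figure D1:**
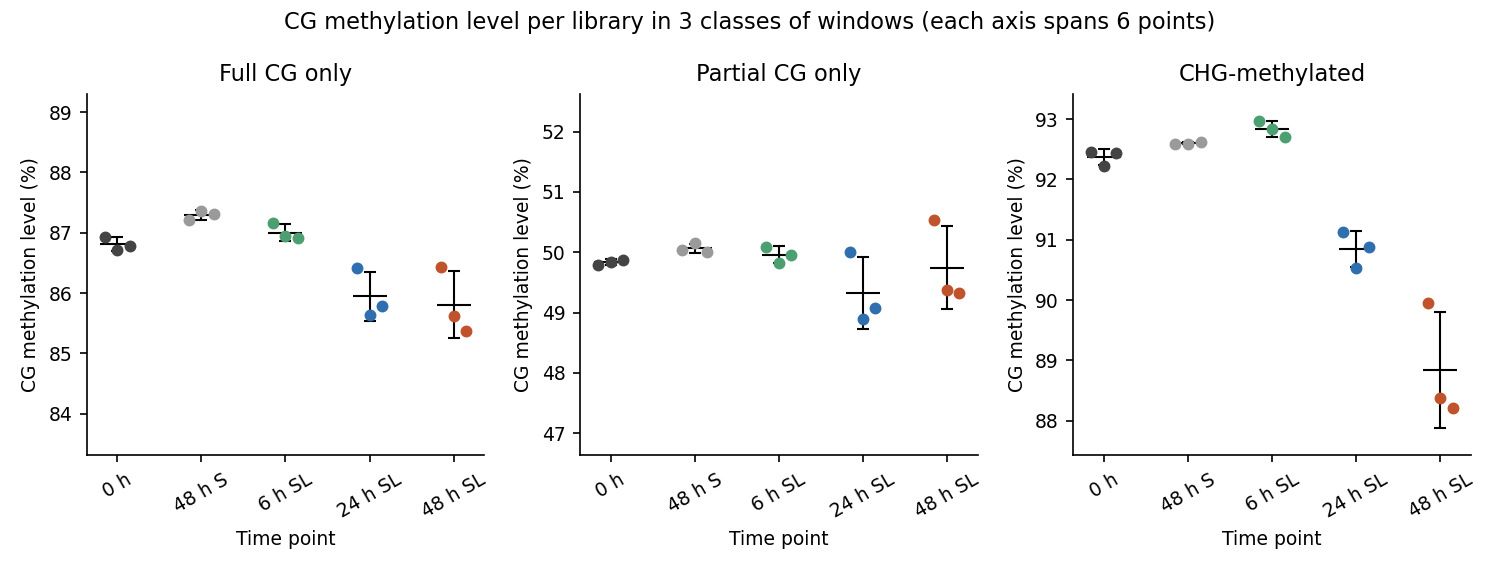
CG methylation level (%, vertical axes, each spanning 6 points but at different heights) at the 5 time points (horizontal axis) in full-CG, partial-CG and CHG-methylated windows, with 1 point per library and bars for the mean and SD of 3 libraries. In the full-CG windows the dry-seed libraries sit between 86.7% and 86.9% and those of 48 h SL between 85.4% and 86.4%, and 48 h S is the time point that chose the windows.

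Set beside other CG-methylated windows, chosen on the same 48 h S libraries, the full-CG windows lay between partial-CG windows and windows that also carry CHG methylation. The 46650 partial-CG windows (20% to below 80% CG, CHG and CHH as in the full-CG windows) were at 49.8% ± 0.0472 in dry seed and 49.7% ± 0.689 by 48 h SL. The 58228 CHG-methylated windows (80% or more CG and 20% or more CHG) went from 92.4% ± 0.132 to 88.8% ± 0.962. The change of the full-CG windows was −0.912 points relative to the partial-CG windows and 2.53 points relative to the CHG-methylated ones. For both differences the 0 h and 48 h SL libraries did not overlap (exact permutation p = 0.1, the smallest possible with 3 against 3). On the scale of log odds, which allows for the different starting levels, the differences were −0.0807 and 0.333 (exact p = 0.1 each), with the same signs. In the CHG-methylated windows CHG went from 59.8% to 55.8% and CHH from 26.1% to 17.2%.

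Almost no CHG or CHH methylation was measured in the full-CG windows. CHG was 0.485% ± 0.0414 in dry seed and 0.570% ± 0.118 by 48 h SL, a difference of 0.0851 points (exact permutation p = 0.3, n = 3), which became 0.0377 without 48 h SL replicate 1 and 0.151 when replicate 3 of that time was left out. CHH was 0.287% ± 0.0400 and 0.486% ± 0.140, a difference of 0.199 (exact p = 0.1, n = 3, libraries not overlapping). The 220176 windows unmethylated in every context, set beside them as a background, went further up, from 0.257% to 0.428% in CHG and from 0.279% to 0.590% ± 0.220 in CHH. The CHH rise was uneven, with 48 h SL libraries at 0.621%, 0.794% and 0.356%. With that background subtracted the CHG difference was −0.0858 points and the CHH difference −0.112. At 48 h SL the full-CG windows stood below the background in CHH, by −0.104 ± 0.0934 points. The subtracted CHH difference is therefore not a measure of CHH methylation in the full-CG windows. In the same unmethylated windows CG went from 0.352% to 0.511%, opposite in sign to the full-CG windows.

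Taken window by window, the differences were small in most cases. Of the 7831 windows, 5096 had at least 3 covered CG cytosines and 20 CG calls in every library and were tested in one quasi-binomial fit over 262730 windows of the genome. Their median difference between 48 h SL and 0 h was −0.942 points, with 90% of them between −7.21 and 5.39 and extremes of −17.2 and 13.6. Lower values at 48 h SL were seen in 3094 and higher values in 1998 windows, so 60.7% were lower. The 24 h SL median was −0.889 points and the 6 h SL median 0.190. In partial-CG windows the median at 48 h SL was −0.134 points, and in CHG-methylated windows −3.49 with 82.6% lower. A difference of 10 points or more was measured in 60 full-CG windows that were lower and 22 that were higher, and none reached 20 points. The median 95% half-width of a single window's difference was 7.05 points, which is wider than the median difference.

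**Figure D2:**
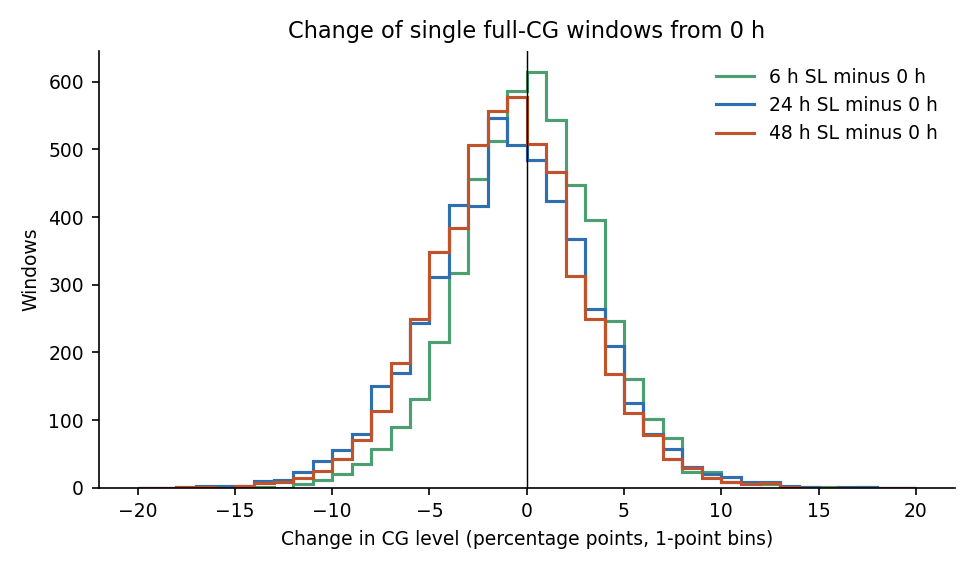
Number of tested full-CG windows (vertical axis) by their difference in CG level from 0 h (percentage points in bins of 1 point, horizontal axis), with 1 line for each time in light. The medians are 0.190 at 6 h SL, −0.889 for 24 h SL and −0.942 for 48 h SL, and the 3 distributions overlap widely.

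The quasi-binomial fit called no full-CG window in any comparison. At adjusted p below 0.05 and 20 points or more, 0 full-CG windows were called for 48 h SL against 0 h, beside 0.0103% of all tested windows. The earlier light samples gave 0 as well, beside 0.00% of all windows for either time, and the time course gave 0, beside 0.00799%. Without a minimum difference the count was again 0 throughout, beside 0.193% of all windows for 48 h SL and 0.135% over the time course. The smallest adjusted p of a full-CG window at 48 h SL was 0.0555 (quasi-binomial fit, Benjamini-Hochberg over all windows). At an unadjusted p below 0.05 the quasi-binomial fit gave 169, 256 and 347 full-CG windows after 6, 24 and 48 h of light, which is 3.32%, 5.02% and 6.81% of those tested, beside 2.70%, 3.43% and 8.49% of all windows. Of the 347, 264 were lower and 83 higher. The 8.49% of all windows is a mix of classes. It was 5.24% of partial-CG, 34.0% of CHG-methylated and 2.97% of unmethylated windows after 48 h of light. The time-course test gave 245, or 4.81% beside 7.31% of all windows. With limma on arcsine square-root levels the counts were 372, 618, 492 and 700, that is 7.30%, 12.1%, 9.65% and 13.7% beside 4.61%, 10.01%, 8.996% and 10.7% of all windows. The share after 48 h of light and that over the time course were thus above the background with limma and below it with the quasi-binomial fit. With edgeR they were 117, 203, 254 and 172, that is 2.30%, 3.98%, 4.98% and 3.38% beside 2.04%, 2.91%, 6.93% and 6.18%. Both tools also called 0 at 20 points. Without a minimum difference edgeR called 1 full-CG window at 48 h SL, a lower one, beside 0.170% of all windows, a count added after the data were seen.

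Windows with large differences show what this spread looks like in single libraries. ATM is the kinase that signals DNA double-strand breaks. Its coding window was at 95.2%, 98.3% and 93.1% in dry seed and 81.6%, 85.7% and 69.0% by 48 h SL, or 95.5% of 178 calls and 79.1% of 201 calls, summed −16.4 points (quasi-binomial adjusted p = 0.0555), with position 177 at 100% and 60.7% and position 159 at 100% and 73.0%. In the opposite direction, the AT1G50140 window was at 74.1%, 82.2% and 81.2% before and 94.7%, 94.6% and 87.5% after, summed 13.6 points higher (quasi-binomial adjusted p = 0.238). In both windows the libraries of the times compared did not overlap, and neither passed the threshold.

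The threshold of 80% was not a gap in the data. The 3 members just inside it at 48 h S, all at 80%, were in GLE1, an mRNA export factor, SWI3C, a chromatin remodelling subunit, and SPL10, a transcription factor. Their dry-seed levels were 74.0%, 78.4% and 80.7%, and their levels after 48 h of light 81.8%, 79.8% and 74.3%. The 3 windows just outside, in AT5G19420, MAC5A and AT1G09730, had dry-seed levels of 77.0%, 75.1% and 78.3% and later levels of 77.6%, 80.2% and 81.4%. Of the full-CG windows 89.3% were at 80% or more in dry seed, and 89.3%, 84.5% and 85.7% after 6, 24 and 48 h of light, against 100% at 48 h S by construction. At least 7801 of the windows had 20 or more summed calls at each time. Of those none was below 40%, and the lowest was at 62.8% in dry seed, 57.1% after 24 h of light and 61.2% at 48 h SL. The share at 95% or more was 7.22% in dry seed and 3.06% by 48 h SL. Applying the same rule to the 48 h SL libraries gave 7196 windows, of which 6499 were shared, which is 83.0% of the full-CG windows and 90.3% of that other choice. Applied to 6 h SL, where the level was not lower than in dry seed, it gave 7534 windows. Of these 6576 were shared, or 84.0% of the full-CG windows and 87.3% of that choice.

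Single cytosines at either end of the range mostly kept their own state. Of the 104232 CG cytosines in full-CG windows, 101804 had at least 10 calls at 48 h S and were classed by their level there. The 15997 cytosines at 100% (15.7%) were at 93.9% ± 0.0539 in dry seed and 92.2% ± 0.405 by 48 h SL, and the 70563 at 80% to below 100% (69.3%) at 90.9% and 89.8%. Their differences were −1.67 and −1.15 points, with libraries that did not overlap (exact permutation p = 0.1, adjusted over the 4 classes p = 0.2). The 12408 at 20% to below 80% (12.2%) were at 72.6% and 72.8%, and the 2836 below 20% (2.79%) at 4.09% and 4.38%, differences of 0.243 and 0.287 points with overlapping libraries (exact p = 0.8 and 0.3). Without 48 h SL replicate 1 the former was −0.0786, and the values were 0.439 and 0.437 when replicate 3 of that time was left out. The shares that follow count cytosines with at least 10 calls at the time in question. Cytosines below 20% stayed below 20% in 93.1% of 2230 cases in dry seed. After 6, 24 and 48 h of light the shares were 92.9% of 1878, 93.3% of 993 and 93.0% of 2321, and 0% reached 80%. Although few, the cytosines below 20% held 19.3% of all unmethylated calls of the classed cytosines at 0 h, and position 161 of the AT1G48090 window is an example. Those at 100% were at 80% or more in 96.7% of cases in dry seed and 94.5% by 48 h SL. Of those at 20% to below 80%, 53.1% were in that range in dry seed and 52.9% by 48 h SL, while 44.9% and 45.2% were at 80% or more, at a median of 15 and 16 calls per cytosine. At 48 h S, which set the classes, the class at 20% to below 80% was at 67.4%.

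**Figure D3:**
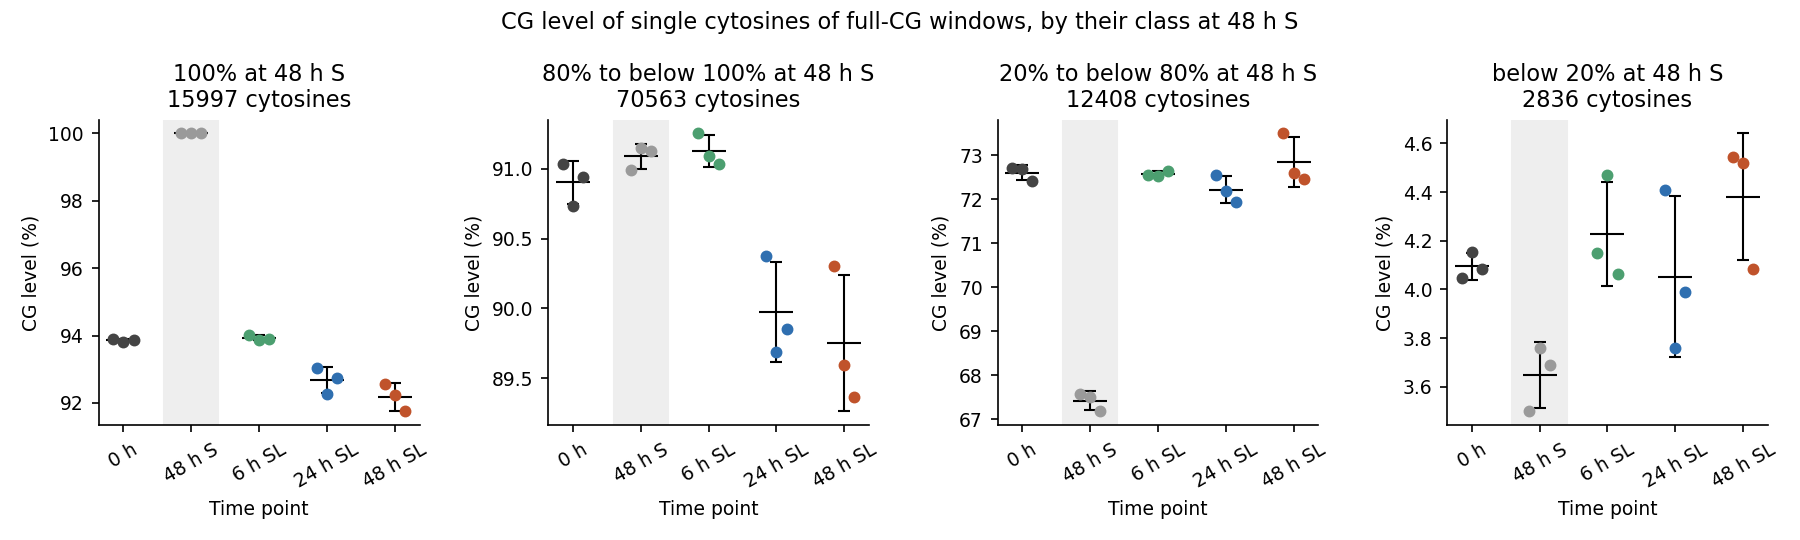
CG methylation level (%, vertical axes, which differ between panels and do not start at 0) at the 5 time points (horizontal axis) for single cytosines of full-CG windows in 4 classes by their level at 48 h S (shaded), with 1 point per library and bars for the mean and SD of 3 libraries. From dry seed to 48 h SL the class below 20% goes from 4.09% to 4.38% and the class at 100% from 93.9% to 92.2%.

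The base that follows the CG dinucleotide set the cytosines apart. A following T was found at 22.6% of all CG cytosines in full-CG windows, but at 11.6% of those at 100%, 20.8% of those at 80% to below 100%, 42.3% of those at 20% to below 80% and 41.3% of those below 20%. At 0 h the level was 88.9% at CGA, 88.5% at CGC, 88.1% at CGG and 80.5% at CGT. At 48 h SL it was 88.3%, 86.2%, 86.6% and 80.5%. CGC and CGG cytosines differed by −2.27 and −1.52 points with libraries that did not overlap (exact permutation p = 0.1, n = 3), whereas CGA differed by −0.621 with overlap, and CGT by −0.0424 (exact p = 1, n = 3). A dinucleotide with T after it on both strands, as at position 161 of the AT1G48090 window, was at 73.6% in dry seed and 72.1% by 48 h SL (2164 dinucleotides). One with T on 1 strand was at 84.1% and 83.1% (19169), and one with T on neither at 89.5% and 88.6% (30656). Their differences were −1.43, −1.05 and −0.931 points in that order, each with libraries that did not overlap (exact p = 0.1, n = 3), so that dinucleotides with T on both strands were lower by 48 h SL as well. The gap between CGC and CGT was 7.95 ± 0.164 points in dry seed and 5.72 ± 0.304 by 48 h SL, a difference of −2.23 (exact p = 0.1, n = 3). In partial-CG windows CGC differed by −1.31 and CGT by 0.846 points, and the gap differed by −2.16 points. In CHG-methylated windows, where levels are nearer to 100%, it differed by −0.247. How the classes compare depends on the scale. In points the change of the gap in full-CG windows minus that in partial-CG windows was −0.0731 (exact p = 0.9, n = 3), and minus that in CHG-methylated windows −1.99 (exact p = 0.1, n = 3). On natural log odds the gap changed by −0.203 in full-CG, −0.0893 in partial-CG and −0.164 in CHG-methylated windows. On that scale full-CG minus partial-CG windows gave −0.114, with libraries that did not overlap (exact p = 0.1, n = 3), and full-CG minus CHG-methylated windows −0.0396, with overlap (exact p = 0.2, n = 3).

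In full-CG windows the gap also narrowed between both strands of the same dinucleotide, which share a locus. In bulk samples a changed mix of cells and a changed gap within cells cannot be told apart here either. In 4414 dinucleotides of full-CG windows the CG was followed by C on 1 strand and by T on the other. The CGC strand was at 84.4% ± 0.350 in dry seed and 81.3% ± 0.530 by 48 h SL, a difference of −3.18 points, and the CGT strand at 81.1% ± 0.254 and 81.3% ± 0.505, a difference of 0.155 (exact permutation p = 0.1 and 0.8, n = 3). The gap between the strands was 3.43, 3.20 and 3.31 points in the 0 h libraries and −0.201, 0.577 and −0.441 at 48 h SL, without overlap (difference of means −3.33, exact p = 0.1, n = 3). For the times between it was 3.29, 3.50 and 2.40. With G in place of C (5662 dinucleotides) the gap went from 4.41 to 0.831 points, the CGT strand being 1.18 points higher at 48 h SL, and with A (9093) from 2.99 to 1.37. Partial-CG windows gave 2.84 and 0.149 points for C, and CHG-methylated windows 1.24 and 0.483. In the CHG-methylated windows both strands were lower by 48 h SL, with differences of −4.69 points for the CGC strand and −3.94 for the CGT strand. The part of the sequence-dependent shift in the difference of −1.002 points in the level as a whole was not tested.

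**Figure D4:**
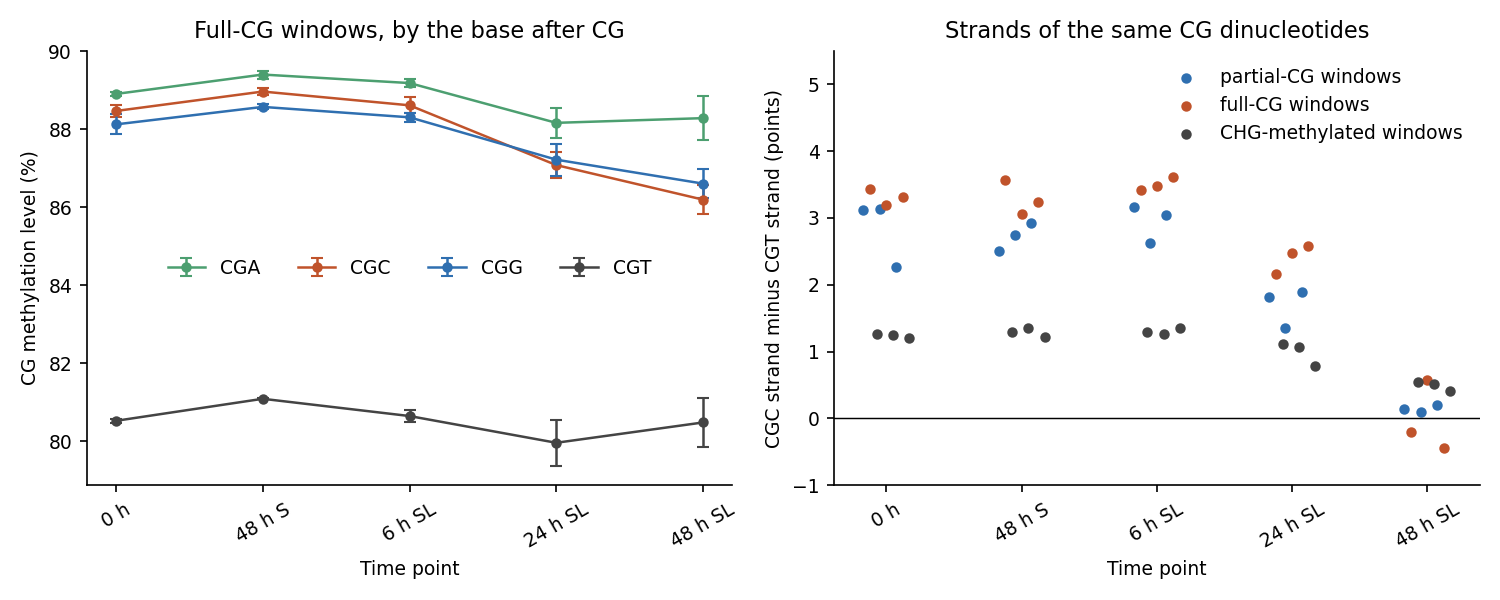
Left, mean CG level (%, vertical axis, bars are the SD of 3 libraries) in full-CG windows by the base after the CG at the 5 time points; right, level of the CGC strand minus that of the CGT strand of the same dinucleotides (points, vertical axis), 1 point per library, in each class of windows. In full-CG windows this gap averages 3.31 points in dry seed, 2.40 after 24 h of light and −0.0217 after 48 h.

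Both strands of a dinucleotide were otherwise alike. Of the dinucleotides with at least 10 calls on each strand, 75.7% of 32728 were at 80% or more on both strands in dry seed and 73.7% of 35776 by 48 h SL, and the strands differed by 50 points or more in 0.131% and 0.0447%. The level of the gene's sense strand minus that of its antisense strand was −0.359 to −0.000488 points over the 15 libraries.

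The label of gene-body windows held against the annotation. By its midpoint, 64.2% of the full-CG windows (5031) were in a coding exon, 33.5% (2620) in an intron and 1.596% (125) in an untranslated exon, while 18 lay outside any gene. Of all windows with enough calls 29.8%, 15.7% and 10.9% were in these places and 34.1% outside genes. Coding and intronic windows differed between 48 h SL and 0 h by nearly the same amount, −1.01 and −1.02 points. The untranslated windows differed by −0.168, with overlapping libraries. Full-CG windows lay in the inner part of genes. The 7776 in protein-coding genes had a median relative position of 0.564 of the way from start to end, and 5 equal parts of the gene from start to end held 2.94%, 19.6%, 34.5%, 33.3% and 9.59%, whereas each part held 19.5% to 20.2% of all windows with enough calls. Within 500 bp of the start lay 0.296% of them, beside 20.7% of all windows, and within 500 bp of the end 2.83%, beside 19.99%. Partial-CG windows lay in much the same places, with 62.0% in a coding exon, 32.3% in an intron and a median relative position of 0.595. Of those in genes, 3.64% were in the first part, and 17.0% in the last part, more than for full-CG windows.

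**Figure D5:**
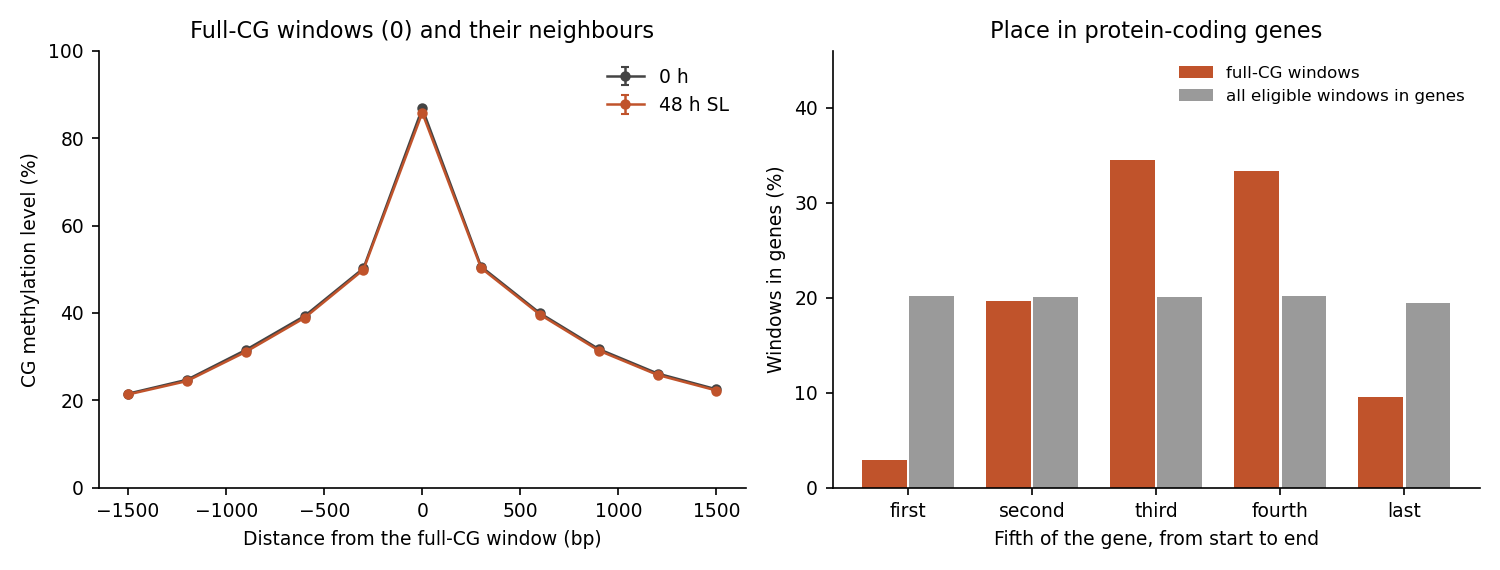
Left, mean CG level (%, vertical axis) of full-CG windows and of windows around them that are not full-CG windows, by distance (bp, horizontal axis), at 0 h and 48 h SL; right, share (%, vertical axis) of full-CG windows and of all windows with enough calls that lie in each of 5 equal parts of a protein-coding gene. The level at 0 h is 50.2% and 50.6% at 300 bp on either side, and the middle part of the gene holds 34.5% and the first part 2.94% of the full-CG windows.

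The windows fell in 3673 protein-coding genes, 13.4% of 27444, and these were long. Their median length was 3975 bp, against 1890 bp for genes without one. The share of genes with a full-CG window went from 0.183% at up to 1000 bp to 78.8% above 6000 bp. One full-CG window was found in 1965 of these genes and 5 or more in 339. Most windows stood alone: 4803 of 6106 runs of adjoining windows held 1, and the longest held 7, or 2100 bp. Around them the CG level of the neighbouring non-member windows was 50.2% and 50.6% at 300 bp to the left and right on the chromosome, and 21.5% and 22.5% at 1500 bp. Windows with few CG dinucleotides differed more: up to 4 gave −1.33 points (2020 windows), more than 8 and up to 12 gave −0.870 (1644), and more than 12 gave −0.125 with overlapping libraries (316).

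The 6 genes with the most full-CG windows differed in how well they kept the level. AT1G48090 (chromosome 1, 17732010 to 17758508, 27 windows) was at 86.9% ± 1.601 in dry seed and 86.1% ± 1.11 by 48 h SL (exact permutation p = 0.7, n = 3). AT1G67120 (25069428 to 25095638, 21 windows) was at 85.4%, 87.5% and 86.1% in dry seed and 81.7%, 80.4% and 79.0% by 48 h SL, a difference of −5.95 points. ATM (AT3G48190, chromosome 3, 17801289 to 17828553, 18 windows) was at 89.8%, 89.8% and 90.5% and then 86.0%, 85.1% and 85.4%, a difference of −4.52. In both the libraries did not overlap. ILA (18 windows) differed by −1.33 points with overlap, and AT5G24740 (18 windows, annotated as a vacuolar protein sorting protein) and AT2G25730 (17 windows, a FYVE zinc finger protein) by −2.56 and −2.96 without. Over the 909 genes with at least 3 full-CG windows the median difference was −1.29 points, 90% lay between −4.77 and 2.53, and none reached 10. Of these genes 648 were lower at 48 h SL. The share of them whose libraries did not overlap was not counted, so the lack of overlap in the genes above has no background beside it. The most negative, picked after the values were seen, were POK2 (−7.64 points), a kinesin that guides the plane of division, AT3G54440 (−7.63) and MRH2 (−7.44), a kinesin of root hair growth. The most positive were NEK1 (5.74), a NIMA-related kinase, AT5G43560 (5.64) and PRAF1 (5.39).

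Among genes for the methylation machinery, none of the 5 CG maintenance genes (MET1, DDM1, VIM1, VIM2 and VIM3) held a full-CG window. Of the genes of CHG methylation and the H3K9 loop 5 of 6 did, of the demethylase genes 1 of 4 (DME), of the large subunits of RNA polymerases II, IV and V 4 of 4, and of the DNA replication genes 5 of 11. The background for these counts is the 13.4% of all protein-coding genes, and these genes are long, with list medians of 4135 to 7738 bp against 2078 for all. By length the background was 1.36% at 1000 to 2000 bp, 10.2% at 2000 to 3000 bp and 26.05% at 3000 to 4000 bp. It was 47.0% at 4000 to 6000 bp and 78.8% above that. Of 10 genes of seed storage proteins and oil-body oleosins, with a median of 989 bp, 0 held one. Product names gave 18 of 29 kinesin genes (62.1%), 64 of 128 helicase genes (50%), 37 of 139 WD40 genes (26.6%), 48 of 374 transcription factor genes (12.8%) and 12 of 344 ribosomal protein genes (3.49%), whose median lengths were 5304, 4416, 2949, 2192 and 1565 bp.

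Among the replication and polymerase genes the full-CG windows of TIL1, MCM2, MCM5 and NRPD1 were lower in every 48 h SL library than in every 0 h library, while the libraries overlapped for MCM3, POLD1, NRPB1, NRPB2 and NRPE1. The share of all genes with a full-CG window whose libraries did not overlap was not counted. The lack of overlap is therefore not read as a trait of these genes. TIL1, the catalytic subunit of DNA polymerase epsilon, had 7 windows at 89.5%, 91.6% and 88.4% in dry seed and 88.0%, 83.3% and 84.1% by 48 h SL (−4.73 points). MCM2, a subunit of the replicative helicase, had 2 windows at 90.3%, 83.6% and 84.5% and then 79.1%, 80% and 75% (−8.10). For both genes the exact permutation p was 0.1 (n = 3). POLD1, of DNA polymerase delta, went from 82.5% ± 2.78 to 79.7% ± 1.84 in 2 windows with overlap (exact p = 0.2, n = 3). Among polymerase subunits, NRPD1 of RNA polymerase IV had 7 windows at 87.8%, 84.9% and 85.3% and then 83.0%, 80.7% and 81.3% (−4.31), while NRPB1 of RNA polymerase II, also with 7, went from 84.8% ± 2.55 to 84.4% ± 0.658 (exact p = 0.8, n = 3). The CHG and H3K9 genes CMT2, SUVH4, SUVH5 and SUVH6 differed by −2.23, −3.76, −5.83 and −2.64 points in 1 or 2 windows each, with overlapping libraries. IBM1, a histone demethylase that keeps H3K9 methylation out of gene bodies, had 1 window at 88.3%, 88.6% and 90.1% and then 82.7%, 87.9% and 65.9%. Its summed calls were 195 and 151, and the difference of −10.2 points includes the third 48 h SL library, which stood far below the others. DME was 9.16 points higher at 48 h SL in 2 windows, with libraries at 71.5%, 64.7% and 81.0% and then 84.4%, 82.3% and 78.0%, which overlap (exact p = 0.2, n = 3).

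The series also holds lists of differentially methylated regions (DMRs), used here as deposited and with no minimum difference in methylation applied. The study's methods describe such a minimum after calling, and the sets that the study reports are smaller than these lists in each context. The counts here are therefore not those of its final sets, and an overlap does not mean a region that the study kept. The 14888 CG DMRs overlapped 1584 full-CG windows, 20.2% of them, beside 19.7% of partial-CG windows and 8.44% of all windows with enough calls. Full-CG windows in a CG DMR differed by −0.970 points between 48 h SL and 0 h and the rest by −1.01. The 10655 CHG DMRs and 22441 CHH DMRs overlapped 0 full-CG windows, beside 9.38% and 7.33% of all windows with enough calls, the windows having been chosen for low CHG and CHH at 48 h S.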

How the data were processed

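MethylC-seq was done on 3 biological replicates of each of 5 time points. Per the submitters' processing notes and the study's methods, reads were trimmed with Trim Galore 0.4.2 and aligned to TAIR10 with Bismark 0.16.3, and DMRs were called with HOME. The deposited table holds, for each cytosine and library, counts of methylated and unmethylated calls, made by the authors and not normalised. Bisulfite reads give methylated and hydroxymethylated cytosines alike, incomplete conversion adds to every level, and intervals cover counting error only. The deposited DMR lists hold coordinates (other values), and only their positions were used. All columns of the count table matched a sample.

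Calls were summed in 300-bp windows, and a level is methylated calls as a percent of all calls. Time points were compared on 1 value per library by exact 2-sided permutation tests (scipy 1.17.1) with Benjamini-Hochberg adjustment. p-values measure the spread between these libraries. Single windows with at least 3 covered CG cytosines and 20 CG calls in every library were tested in a quasi-binomial fit of all 15 libraries, written with numpy 2.4.6. It was checked on simulated counts with no added variation between libraries and with changes larger than any measured in a full-CG window. That check does not show its error rate or power at the spread and the small differences of these data. Its dispersion was moderated with a prior of 29.9 degrees of freedom at 1.35, estimated on 101982 windows with at least 30 methylated and 30 unmethylated calls. That choice was made after the data were seen, because the prior estimated over all windows failed. Alternatives were limma 3.58.1 and edgeR 4.0.16 (R 4.3.3), other minima of calls, the rule applied to 6 h SL or 48 h SL, each library left out and a replicate block. Annotation and sequences were RefSeq TAIR10.1, whose sequence matched the table's coordinates and contexts.

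The members, the comparison classes and the gene lists were chosen with earlier results of these data known. Genes were named if they were among the 6 with the most full-CG windows, were in the lists, or held the 3 windows next to the CG minimum. A further rule, for windows past adjusted p, found none, so extremes of change were named after their values were seen, and a window among them is not reported here. The comparisons by base after CG and within dinucleotides were also added after the data were seen.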

Additional observations from a re-analysis of the deposited data

How the results depend on the processing

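The 48 h SL difference kept its sign in every alternative that was run for it, from −0.785 to −1.32 points when 1 library was left out, −0.937 with at least 20 calls per window and library, −1.47 with a CG minimum of 90% and −1.03 with windows chosen from 6 h SL. With windows chosen from 48 h SL the 6 h SL difference was 0.228 points and the 24 h SL difference −0.750. The 48 h SL difference was not run with that choice, so it rests on windows chosen before 24 h of light. Leaving out 1 library gave 0.118 to 0.257 points at 6 h SL and −0.710 to −1.10 at 24 h SL, and p = 0.00076 to 0.0365 for the permutation F test. It gave −0.824 to −0.999 points for the change relative to partial-CG windows and 2.39 to 2.77 for that relative to CHG-methylated windows. With only cytosines of at least 4 calls in every library (2135 cytosines) the 6 h SL difference was 0.532 points and the 24 h SL difference −0.484, with overlapping libraries at 24 h SL (exact permutation p = 0.3, n = 3). With unmethylated windows subtracted, the CHG difference was −0.0858 points and the CHH difference reversed to −0.112. The cause of these moves was not tested. With the replicate block the differences are the same, and 0 full-CG windows were called at 20 points. The exact sign-flip p over 3 pairs was 0.25, the smallest possible, for the CG level at each time in light and for CHH. It was 0.5 for CHG, 0.75 for cytosines at 20% to below 80% and 0.5 for those below 20%. Correlations of deviations between same-numbered libraries over single windows were −0.0067 to 0.0244, against −0.0291 to 0.0155 for other pairs. They carry the counting error of single windows, so they do not decide whether same-numbered libraries share a deviation. In the summed full-CG windows replicate 1 had the highest CG level in dry seed and after each time in light. Its levels were 86.9%, 87.2%, 86.4% and 86.4%. At 48 h S it was the lowest, with 87.2%. Whether the numbers pair the libraries at this level was not tested. Over all windows the 508 calls at 48 h SL without a minimum difference became 2 to 548 when 1 library was left out, with the lowest count without 0 h replicate 1. Without a minimum difference 1 lower full-CG window was called at 48 h SL with the replicate block, without 24 h SL replicate 2, or without 48 h SL replicate 1, alternatives added after the data were seen. Depth limits single windows, whose median half-width of 7.05 points exceeds the differences of most of them.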
